A study of Mus musculus with 36 samples.

Results

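Mouse embryonic stem cells treated with BPK25 were compared between day 2 and day 0, over all genes. The comparison was chosen by label: it takes the 3 libraries of BPK25 at day 2 and the 3 of BPK25 at day 0, 6 of the 36 libraries of the series. The other libraries come from the same cell type under BPK25 at days 4 and 6, and under DMSO, the usual solvent for compounds, or IAA (auxin) at days 0, 2, 4 and 6, with 3 libraries in each of the 12 groups. BPK25 is a code name, and nothing more about the compound is used here. IAA is used to degrade proteins that carry a degron tag; the labels do not say which protein, if any, is tagged in the cells given BPK25. The day 0 libraries carry the BPK25 label too. All groups share serum replacement medium with the cytokine LIF, usually on gelatin with irradiated mouse fibroblast feeders, so feeder RNA can be part of any library. The labels give neither the dose nor the event from which days are counted, and do not say whether replicates were separate cultures. The p-values below therefore rest on the spread between these libraries alone, and that spread may be technical.

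Embryonic stem cells keep the capacity to form every tissue of the embryo through a network of transcription factors that includes Oct4 (the gene Pou5f1), Sox2, Nanog, Esrrb and the Klf factors. LIF supports this naive state, whereas FGF4 signalling through the kinase ERK moves cells towards exit from it and induces its own inhibitors, among them the Sprouty genes. The NuRD complex, named in the title of the series, joins the remodeller Chd4 to histone deacetylases and limits how strongly pluripotency genes are transcribed, and CTCF with cohesin shapes chromatin loops.

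The day 2 libraries held 9738185 to 11820023 counts over genes and the day 0 libraries 8979007 to 12695704. Of 55335 genes, 17394 passed the filter on low counts and were tested. By root mean square log2 distance, day 2 libraries lay 0.337 to 0.374 from day 0 libraries, 0.311 to 0.335 from each other, and day 0 libraries lay 0.338 to 0.363 from each other, and no library stood apart. Levels are in CPM, gene counts relative to the scaled total of the library, with ± for the SD (n = 3). Log2 fold changes carry as ± their absolute value over the root of the test's F value, an approximate standard error. The stem cell markers Pou5f1, Sox2, Nanog, Zfp42, Esrrb and Dppa5a were all present, summing to 2527 to 2548 CPM at day 2 and 2659 to 2805 CPM at day 0. The 8 defining feeder markers summed to 20.1 to 22.1 CPM at day 2 and 18.8 to 19.8 CPM at day 0.

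The change over the 2 days was broad in number and small in size, and most of it was downward. By edgeR's quasi-likelihood test with Benjamini-Hochberg adjustment, 190 genes (1.09% of those tested) were higher at day 2 and 658 (3.78%) were lower, 848 (4.88%) in all, so that 77.6% of the calls were lower. The median fold among called genes was 1.24 for those higher and 1.19 for those lower, and the median log2 fold change of all genes tested was 0.01. Changes of at least 2-fold were called for 16 genes that were higher and 8 that were lower, and only 6 of these genes reached a mean of 5 CPM in either group. The libraries of the groups did not overlap for 1608 genes above (9.24%) and 1998 below (11.5%). Leaving out 1 library changed the count of higher genes to 125 without day 2 replicate 1, 88 without day 2 replicate 2, 117 without day 0 replicate 1 and 114 without day 0 replicate 2, and the count of lower genes to 427 without day 2 replicate 2.

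**Figure D1:**
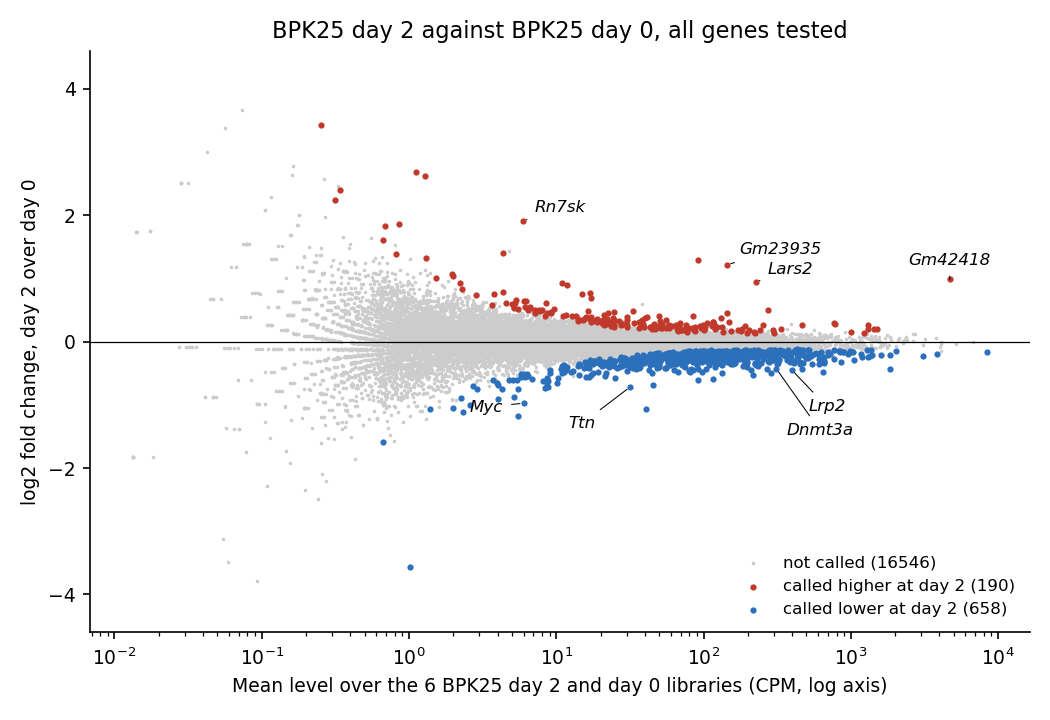
Each point is 1 of the 17394 genes tested, placed by its mean level over the 6 libraries (CPM, log axis) and its log2 fold change, BPK25 day 2 over day 0; colours mark genes called higher (190) and lower (658). Most called genes lie within 1 log2 unit of 0, and blue points outnumber red ones.

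Genes that were lower at day 2 were longer and poorer in G and C than the rest. Their median transcript length was 3990 bases with 45.9% GC, against 3026 bases and 49.7% for all genes tested, and genes that were higher had 1843 bases and 52.9%. In DMSO the lower genes had 3952 bases and 49.1% and the higher genes 1990 bases and 52.6%. With each library's trend in GC content and length removed, an alternative added after seeing the data, 162 genes were higher and 579 lower, of which 138 and 525 were among the calls above. That trend can hold biology as well as library preparation, and their parts in the counts were not tested.

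Many pluripotency genes fell at day 2, by small amounts. Of 21 genes tested on the list of naive pluripotency genes, 9 were lower, 2 higher and 10 not called, with a median log2 fold change of -0.18. Of 14 on the core list, 7 were lower, 0 higher and 7 not called, with a median of -0.14. Called genes made up 52.4% of the naive list and 50% of the core list, against 4.88% of all genes tested. Klf4, a LIF-responsive reprogramming factor, had 129, 139 and 136 CPM at day 2, against 174, 163 and 172 CPM at day 0 (log2 fold change -0.33 ± 0.05, adjusted p = 4.89e-06). Its day 2 libraries all lay below its day 0 libraries. Tfcp2l1, a naive-state transcription factor downstream of LIF, had 54.3, 53.6 and 60.7 CPM at day 2, against 67.7, 74.997 and 70.4 CPM at day 0 (log2 fold change -0.34 ± 0.06, adjusted p = 4.25e-05). Tbx3, a T-box factor that supports self-renewal, and Klf5, a factor of the same family as Klf4, were lower too (-0.31 ± 0.04 and -0.30 ± 0.06 on the log2 scale). The gene with the lowest fold change among the naive genes was Manba, which encodes lysosomal beta-mannosidase and is no transcription factor (-0.37 ± 0.06). Among the core genes L1td1, an RNA-binding protein abundant in pluripotent cells, had 523, 517 and 568 CPM at day 2, against 661, 702 and 686 CPM at day 0 (log2 fold change -0.35 ± 0.05, adjusted p = 4.68e-06), with no overlap between the days. Tdgf1, the Nodal co-receptor Cripto, fell by less (-0.21 ± 0.05).

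The central factors changed less or were not called. Pou5f1 had 823, 793 and 762 CPM at day 2, against 908, 846 and 890.05 CPM at day 0 (log2 fold change -0.15 ± 0.04, adjusted p = 0.0121); it was not called without day 2 replicate 3 (-0.13) or day 0 replicate 1 (-0.13). Nanog had 116, 129.9 and 123 CPM at day 2, against 119.8, 120.2 and 118 CPM at day 0 and was not called (log2 fold change 0.04 ± 0.05, adjusted p = 0.79), and its libraries overlapped. Sox2 was not called either (log2 fold change -0.12 ± 0.05, adjusted p = 0.15). Zfp42 (Rex1), a marker of the naive state, had a log2 fold change of -0.21 ± 0.05 (adjusted p = 0.00242). Esrrb, an orphan nuclear receptor of the naive network, changed by -0.17 ± 0.05 (adjusted p = 0.0148) and was not called without day 2 replicate 1 (-0.15) or day 0 replicate 1 (-0.16). The lower count of the core list was 4 without day 2 replicate 3 and 4 without day 0 replicate 1. The higher count of the naive list was 0 without day 2 replicate 1 or day 0 replicate 2, and 1 without day 2 replicate 2, day 2 replicate 3 or day 0 replicate 1.

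**Figure D2:**
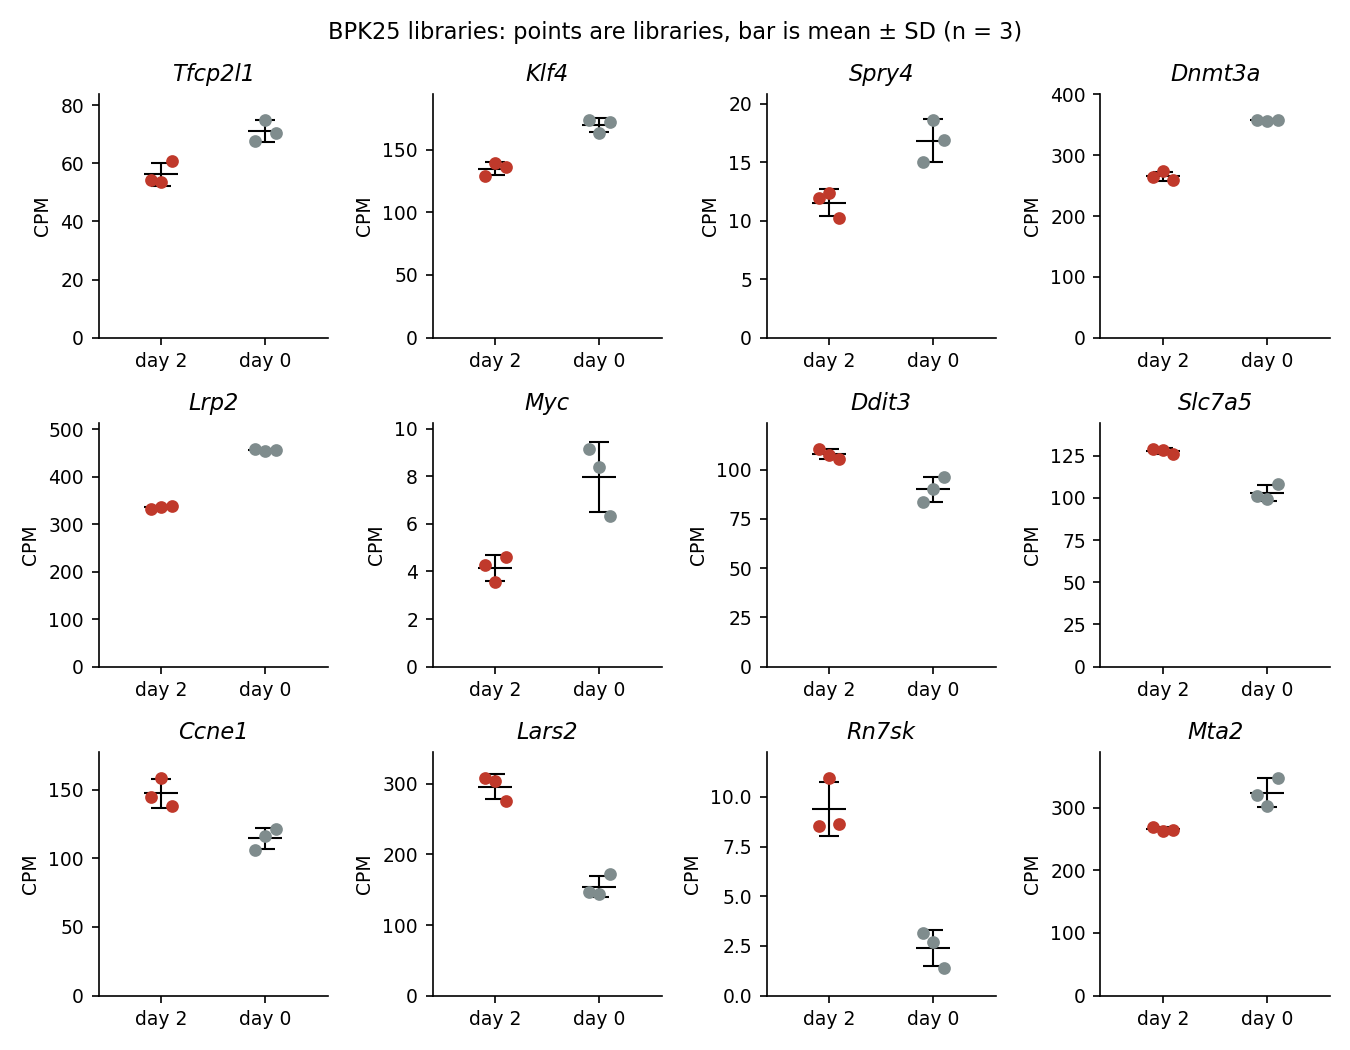
Level in CPM of 12 genes in each BPK25 library, day 2 left of day 0; points are libraries and bars are mean ± SD (n = 3). The days do not overlap for any of the 12 genes; Ddit3, Slc7a5, Ccne1, Lars2 and Rn7sk are higher at day 2 and the other 7 are lower.

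Feedback inhibitors of FGF signalling were among the genes that fell. On the list of FGF and ERK genes 6 of 16 tested were lower and 0 higher, with a median log2 fold change of -0.20. The share called was 37.5%, against 4.88% of all genes tested. Spry4, a Sprouty inhibitor induced by ERK, had 11.95, 12.4 and 10.2 CPM at day 2, against 15.02, 18.6 and 16.9 CPM at day 0 (log2 fold change -0.53 ± 0.10, adjusted p = 0.000305). Spry2, of the same family, had 22.8, 25.1 and 21.2 CPM at day 2, against 30.8, 29.98 and 30.8 CPM at day 0 (log2 fold change -0.40 ± 0.08, adjusted p = 0.000854). Both genes had every day 2 library below every day 0 library. The ETS factor Etv5 changed by -0.28 ± 0.07 and was not called without day 0 replicate 3 (-0.22). The ERK phosphatase Dusp4 changed by -0.31 ± 0.09 and was not called without day 2 replicate 1 (-0.24), day 2 replicate 3 (-0.29), day 0 replicate 2 (-0.30) or day 0 replicate 3 (-0.27). The count of lower genes fell to between 2 and 4 whichever 1 of the 6 libraries was left out. It was 3 without day 2 replicate 1, 3 without day 2 replicate 3 and 2 without day 0 replicate 3. In the Nodal pathway 2 of 14 genes were called (14.3%, against 4.88% of all genes tested), Tdgf1 lower and Lefty1, a Nodal inhibitor, higher (0.16 ± 0.05). Lefty1 was not called without day 2 replicate 1 (0.14), day 2 replicate 2 (0.16), day 0 replicate 1 (0.15), day 0 replicate 2 (0.15) or day 0 replicate 3 (0.17). None of 17 BMP genes was called and 1 of 18 Wnt genes, Tcf7l2, was lower (-0.30 ± 0.08), though not without day 2 replicate 2 (-0.28) or day 0 replicate 3 (-0.29). The Wnt share of 5.56% lay near that of all genes tested.

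Genes of DNA methylation were lower in 5 of 10 cases and higher in 0, with a median of -0.17 (50% called, against 4.88% of all genes tested). This count did not change when any 1 of the 6 libraries was left out. Dnmt3a, a de novo DNA methyltransferase, had 264, 274 and 259.6 CPM at day 2, against 358, 356 and 358 CPM at day 0 (log2 fold change -0.43 ± 0.04, adjusted p = 1.75e-11), 1 of the clearest separations between the days. Dnmt3l, its catalytically inactive partner, had 44.4, 45.9 and 48.8 CPM at day 2, against 56.4, 55.9 and 57.4 CPM at day 0 (log2 fold change -0.29 ± 0.06, adjusted p = 0.000346). Tet1 and Tet2, the dioxygenases that oxidise methylcytosine, changed by -0.23 ± 0.04 and -0.23 ± 0.05 on the log2 scale, and Zfp57, which keeps methylation at imprinted regions, by -0.28 ± 0.04. On the Polycomb list 3 of 18 genes were lower and 0 higher: Rybp (-0.27 ± 0.05) of the variant PRC1 complex, and Mtf2 (-0.20 ± 0.04) and Suz12 (-0.18 ± 0.04) of PRC2. Without day 0 replicate 2 the Polycomb count was 5. With all libraries 16.7% of the Polycomb list was called, against 4.88% of all genes tested.

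Of the 15 NuRD subunit genes 1 was called (6.67%), near the 4.88% of all genes tested. Mta2, a scaffold subunit, had 269, 263 and 264 CPM at day 2, against 321, 302 and 348 CPM at day 0 (log2 fold change -0.28 ± 0.05, adjusted p = 0.000321), with the highest day 2 library below the lowest day 0 library. The remodeller Chd4 had 988, 939.8 and 1039 CPM at day 2, against 1050.4, 1079 and 1075 CPM at day 0 and was not called (log2 fold change -0.11 ± 0.04, adjusted p = 0.17). Fold changes of the other 13 subunit genes lay between -0.13 and 0.15 on the log2 scale and were not called; they include the deacetylases Hdac1 (-0.08 ± 0.05) and Hdac2 (0.09 ± 0.10) and the methyl-CpG binding protein Mbd3 (0.05 ± 0.04). On the list of CTCF and cohesin genes 5 of 15 were lower and 0 higher (33.3% called), with a median of -0.12. Smc3, a ring subunit of cohesin, had 577, 553 and 632 CPM at day 2, against 728, 771 and 692 CPM at day 0 (log2 fold change -0.31 ± 0.06, adjusted p = 0.000305). Ctcf itself had 281, 273 and 273 CPM at day 2, against 307, 294 and 306 CPM at day 0 (log2 fold change -0.13 ± 0.04, adjusted p = 0.0388), and was not called without day 2 replicate 1 (-0.15), day 2 replicate 2 (-0.13), day 2 replicate 3 (-0.13), day 0 replicate 1 (-0.12) or day 0 replicate 3 (-0.13). The lower count of this list was 2 without day 2 replicate 1, 1 without day 2 replicate 2, 3 without day 0 replicate 1, 3 without day 0 replicate 2, and 1 with the GC and length trend removed.

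Endoderm genes were lower in 7 of 23 cases and higher in 0, with a median of -0.12 (30.4% called, against 4.88% of all genes tested). Lrp2 (megalin), an endocytic receptor of the visceral endoderm, had 332, 335 and 339 CPM at day 2, against 459, 454 and 456 CPM at day 0 (log2 fold change -0.44 ± 0.03, adjusted p = 1.78e-13). Its partner receptor Cubn (cubilin) had 196, 207 and 188 CPM at day 2, against 256, 247 and 253 CPM at day 0 (log2 fold change -0.35 ± 0.04, adjusted p = 1.56e-07). Gata6, the transcription factor that sets primitive endoderm fate, had 53.6, 51.99 and 49.6 CPM at day 2, against 65.6, 67.1 and 69.3 CPM at day 0 (log2 fold change -0.38 ± 0.05, adjusted p = 2.12e-06). In all 3 genes the libraries of the days did not overlap. Lamb1, a laminin subunit, changed by -0.17 ± 0.03. The 4 defining endoderm markers Gata4, Gata6, Sox17 and Foxa2 summed to 111.5 to 120.7 CPM at day 2 and 134.8 to 145.4 CPM at day 0; in these bulk libraries fewer cells of a type and less RNA per cell cannot be told apart. None of 12 genes of primitive streak and mesoderm was called, 1 of 16 neural genes (Nefm, -0.35 ± 0.11) was lower, though not without day 2 replicate 1 (-0.34), day 2 replicate 2 (-0.29), day 0 replicate 1 (-0.31) or day 0 replicate 2 (-0.33), and 1 of 14 trophectoderm genes (Tead4) was lower. The neural and trophectoderm shares were 6.25% and 7.14%, near that of all genes tested. Of 23 feeder fibroblast genes 1 was called (4.35%, against 4.88% of all genes tested), Vim, which was lower (-0.35 ± 0.05). Stem cells express vimentin as well.

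The gene with the lowest log2 fold change under the naming rule was Myc, a growth-promoting transcription factor that drives ribosome production. Myc had 4.27, 3.54 and 4.59 CPM at day 2, against 9.15, 8.39 and 6.31 CPM at day 0 (log2 fold change -0.97 ± 0.18, adjusted p = 0.000155), with no overlap between the days at a low level. The naming rule requires that lack of overlap. Of the 20 genes on the list of Myc and ribosome biogenesis genes tested, 7 were lower and 0 higher, with a median of -0.10. Called genes made up 35% of the list, against 4.88% of all genes tested. Nop58, a core protein of box C/D small nucleolar RNPs, had 415, 407 and 431 CPM at day 2, against 516, 542 and 518 CPM at day 0 (log2 fold change -0.33 ± 0.04, adjusted p = 7.34e-08). Nolc1, a nucleolar phosphoprotein, had 458, 443 and 459 CPM at day 2, against 545, 546 and 532 CPM at day 0 (log2 fold change -0.26 ± 0.04, adjusted p = 5.6e-06), and Dkc1, the pseudouridine synthase dyskerin, changed by -0.22 ± 0.04. The list also holds Wdr43 (-0.21 ± 0.05) and Utp20 (-0.16 ± 0.04), factors of small subunit processing, named here after their values were seen because their promoters hold the motif described next.

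Many Myc targets carry the E-box CACGTG, which reads the same on both strands. It was searched for in RefSeq promoters of build GRCm38.p6, from 250 bases before to 50 bases after the start of each gene. It stood in 7.15% of 32851 promoters, counted by promoter over all genes. List genes were counted by gene, with a match in any of its promoters, so the shares are not alike. By gene it stood in 5 of 15 of the tested ribosome biogenesis genes with an entry. It stood in 2 of the 5 that were lower and had an entry, Utp20 and Wdr43. Dkc1, Nolc1 and Nop58 held none in this window. The promoters of Utp20 (chr10:88826765-88827064, minus strand) and Wdr43 (chr17:71615965-71616264, plus strand) are shown with that of Naa15 (chr3:51415766-51416065, plus strand), a gene described below whose change differed from DMSO. Naa15 was picked for display, and the motif was not counted over the other genes with such a difference. Capitals mark the motif.
Utp20: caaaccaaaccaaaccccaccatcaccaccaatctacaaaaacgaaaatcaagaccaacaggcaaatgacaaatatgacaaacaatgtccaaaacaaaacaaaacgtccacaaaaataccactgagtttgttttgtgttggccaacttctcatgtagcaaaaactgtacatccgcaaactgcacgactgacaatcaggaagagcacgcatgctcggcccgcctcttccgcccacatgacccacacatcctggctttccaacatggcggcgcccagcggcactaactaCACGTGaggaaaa
Wdr43: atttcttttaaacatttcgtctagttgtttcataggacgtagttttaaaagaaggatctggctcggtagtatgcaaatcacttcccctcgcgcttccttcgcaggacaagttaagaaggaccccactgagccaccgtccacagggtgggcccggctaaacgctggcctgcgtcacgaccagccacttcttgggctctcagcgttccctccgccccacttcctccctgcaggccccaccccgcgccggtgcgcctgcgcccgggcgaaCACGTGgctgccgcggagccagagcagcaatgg
Naa15: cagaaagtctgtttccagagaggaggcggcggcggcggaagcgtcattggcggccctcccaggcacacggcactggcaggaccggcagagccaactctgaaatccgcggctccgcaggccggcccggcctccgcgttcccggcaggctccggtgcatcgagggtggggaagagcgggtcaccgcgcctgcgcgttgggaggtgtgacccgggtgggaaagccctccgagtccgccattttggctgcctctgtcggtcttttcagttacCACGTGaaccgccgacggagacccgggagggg
The first base of the motif lies 37, 17 and 18 bases after the start of Utp20, Wdr43 and Naa15. A match is a description of the sequence and does not show binding.

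Among the 64 ribosomal protein genes 6 were higher and 1 lower, with a median of 0.04. That is 10.9% called, against 4.88% of all genes tested. Rpl41 had 1439.5, 1473 and 1374 CPM at day 2, against 1218, 1119.9 and 1217 CPM at day 0 (log2 fold change 0.27 ± 0.04, adjusted p = 1.73e-05), Rplp0 changed by 0.20 ± 0.04 and Rpl37 by 0.26 ± 0.05. Rps25 was the lower one and had 567, 525 and 656 CPM at day 2, against 777, 699 and 731 CPM at day 0 (log2 fold change -0.34 ± 0.07, adjusted p = 0.00063). The direction of this list depended on the scaling: with the GC and length trend removed, 3 were higher and 6 lower. The higher count was also 3 without day 2 replicate 1 and 3 without day 2 replicate 2. Ribosomal protein genes have many near-identical pseudogenes, and the sources used here do not say how reads were split among copies.

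In the integrated stress response, the program in which Atf4 raises genes of amino acid supply and stress, 6 of 31 genes tested were higher at day 2, 0 lower and 25 not called, with a median log2 fold change of 0.15. That is 19.4% called, against 4.88% of all genes tested. Slc7a5, a transporter of large neutral amino acids, had 129, 129 and 126 CPM at day 2, against 101, 99.1 and 108 CPM at day 0 (log2 fold change 0.31 ± 0.06, adjusted p = 0.000183). Ddit3 (CHOP), a stress-induced transcription factor, had 111, 107 and 106 CPM at day 2, against 83.6, 90.3 and 96.2 CPM at day 0 (log2 fold change 0.27 ± 0.06, adjusted p = 0.0015). Neither gene had overlapping libraries. Psph, the last enzyme of serine synthesis, rose by 0.26 ± 0.06, and Trib3, a pseudokinase induced by Atf4, was higher (0.31 ± 0.08) but not called without day 2 replicate 2 (0.28), day 0 replicate 1 (0.22) or day 0 replicate 2 (0.28). Without day 0 replicate 2 only 3 were higher. Of 20 endoplasmic reticulum stress genes 0 were higher and 1 lower, of 20 aminoacyl-tRNA synthetase genes 0 were higher and Eprs was lower, and of 26 NRF2 and glutathione genes 0 were called. The endoplasmic reticulum and synthetase lists each had 5% called, near the share of all genes tested.

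Metabolic genes that were called changed by small amounts. Called genes made up 20% of the cholesterol synthesis list, 11.1% of glycolysis and 7.89% of the nuclear respiratory chain. Over all genes tested the share was 4.88%. Of 76 nuclear genes of the respiratory chain 6 were higher and 0 lower, with a median of 0.05; Ndufa7, a subunit of complex I, rose by 0.32 ± 0.06, and Atp5k, a subunit of ATP synthase, by 0.28 ± 0.05. That count was 3 without day 2 replicate 1, 2 without day 2 replicate 2, and 3 without each of the day 0 libraries in turn. None of 13 mitochondrially encoded genes was called, and mitochondrial protein-coding genes took 0.991% of counts at day 2 and 0.974% at day 0. In glycolysis 1 of 18 genes was higher, Ldhb (0.22 ± 0.05), a lactate dehydrogenase subunit, and 1 lower, the hexokinase Hk2 (-0.25 ± 0.04). Of 25 cholesterol synthesis genes 5 were lower and 0 higher, with Stard4, a sterol carrier, lowest (log2 fold change -0.38 ± 0.07, adjusted p = 0.000312). The cholesterol count was 3 without any 1 of the day 2 libraries or day 0 replicate 3, and 2 without day 0 replicate 1. Txnip, a brake on glucose uptake named after its values were seen, had 116, 119.6 and 113 CPM at day 2, against 97.4, 97.6 and 90.7 CPM at day 0 (log2 fold change 0.29 ± 0.05, adjusted p = 1.73e-05).

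On the cell cycle lists 1 gene was higher and 1 lower of 20 replication genes, and 2 were lower of 20 mitosis genes. That is 10% of each list, against 4.88% of all genes tested. Ccne1 (cyclin E1), which drives entry into S phase, was the higher replication gene and had 145, 159 and 138 CPM at day 2, against 106, 116 and 121 CPM at day 0 (log2 fold change 0.37 ± 0.06, adjusted p = 4.9e-05). Its lowest day 2 library lay above its highest day 0 library. Of 17 retinoic acid genes 2 were higher and 1 lower, 17.6% against 4.88% of all genes tested. Cyp26a1, which breaks down retinoic acid, rose by 0.18 ± 0.04. Cyp26b1 was higher too, but lost its call in 11 of 14 alternatives. The receptor Rarg fell, with 62.5, 62.6 and 61.2 CPM at day 2, against 81.9, 75.4 and 84.4 CPM at day 0 (log2 fold change -0.38 ± 0.06, adjusted p = 4.59e-05). The lists of immediate early genes (17), YAP targets (13), clustered protocadherins (14), interferon response (11), CHCH-type and copper handling (17) and metallothioneins and metal handling (8) had 0 called genes each. On the heat shock list 3 of 20 genes were lower (1 without day 2 replicate 1, and 0 without day 2 replicate 2 or day 0 replicate 2). On the germline list 2 of 20 were lower (1 without day 2 replicate 2) and on the list of the formative and primed state 2 of 15. These shares were 15%, 10% and 13.3%, against 4.88% of all genes tested. A single gene was lower on each of the lists of p53 targets (29), the state like the 2-cell embryo (22), lysosome and autophagy (20) and the aryl hydrocarbon receptor (9). In that order the shares were 3.45%, 4.55%, 5% and 11.1%, mostly near or below 4.88%. On the imprinted list (28) and the SRF list (17) 1 gene was higher (3.57% and 5.88% called). On the hypoxia (23) and fatty acid (14) lists 1 was higher and 1 lower (8.7% and 14.3% called).

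**Figure D3:**
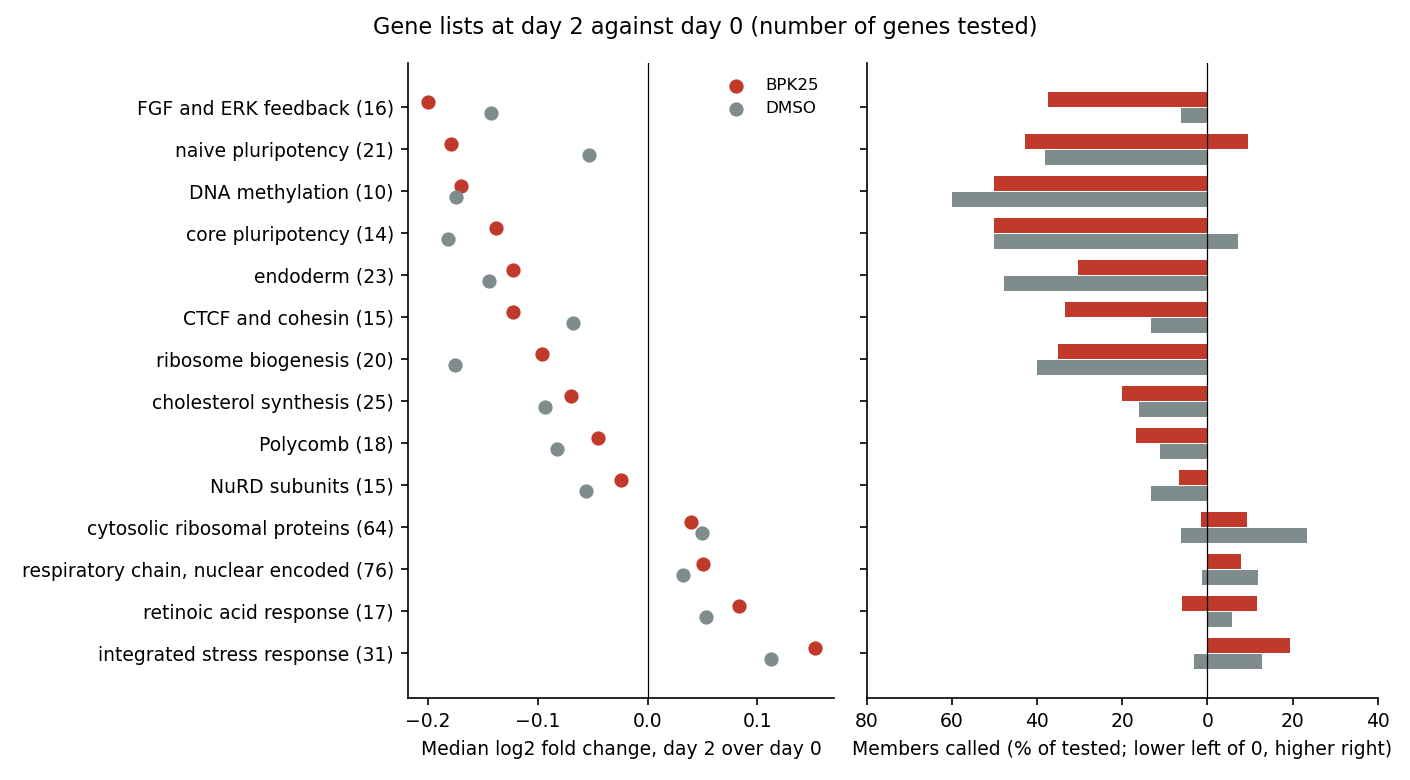
Left, median log2 fold change of the tested genes of a choice of lists (number in brackets), day 2 over day 0, for BPK25 above DMSO; right, members called lower (left of 0) and higher (right of 0) as a percent of those tested. The lists of FGF feedback and naive pluripotency sit lowest for BPK25, and among the lists drawn the integrated stress response sits highest.

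By the naming rule the largest falls after Myc that kept their call in every alternative giving an adjusted p came in genes of different levels. For Ttn 14 alternatives gave an adjusted p. For Myc, Apela, Has2, Lyrm7, Lrrc2, Samd9l and Ltbp2 only 13 did, and the missing alternative was left out of this check. Apela, a peptide hormone of early development, had 3.93, 3.88 and 2.82 CPM at day 2, against 5.70, 6.87 and 7.58 CPM at day 0 (log2 fold change -0.88 ± 0.18, adjusted p = 0.00099). Has2, a hyaluronan synthase, had 6.49, 6.33 and 5.95 CPM at day 2, against 9.88, 11.4 and 10.2 CPM at day 0 (log2 fold change -0.74 ± 0.15, adjusted p = 0.000664). Ttn, which encodes the giant muscle protein titin, had 24.8, 24.2 and 23.4 CPM at day 2, against 41.1, 37.7 and 39.8 CPM at day 0 (log2 fold change -0.71 ± 0.08, adjusted p = 6.7e-09). All 3 had separate libraries, as the rule required. Lyrm7, an assembly factor of complex III, changed by -0.75 ± 0.17, Lrrc2 by -0.66 ± 0.13, the interferon-inducible Samd9l by -0.63 ± 0.13, the pseudogene Nsa2-ps1 by -0.61 ± 0.08 and Llph by -0.58 ± 0.09. On the upward side, next to the RNAs described below, Bloc1s4, a subunit of a lysosome biogenesis complex, had 14.9, 20.8 and 20.8 CPM at day 2, against 11.2, 10.8 and 11.5 CPM at day 0 (log2 fold change 0.74 ± 0.14, adjusted p = 0.000238). The pseudogene Ppp1ccb changed by 0.69 ± 0.11, Ltbp2, which encodes a latent TGF-beta binding protein, by 0.61 ± 0.14, and the palmitoyltransferase Zdhhc7 by 0.61 ± 0.14. Pcbd2, Rn7s2, Lysmd2, Paqr3, Enho, Robo4, Ppargc1b and H2-M5 also met the rule, but leaving out 1 library or another ended their calls. Their values are not given.

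Some structural RNAs and genes that share sequence with them were among the genes that rose most. This set was chosen, apart from Rn7sk and Lars2, after the values were seen. Most genes of the structural RNA types were not called. By type, 0 were called of 121 snoRNA, 15 mitochondrial tRNA, 5 snRNA and 5 scaRNA genes. Higher were 4 of 31 misc_RNA genes, the type of Rn7sk, 1 of 3 rRNA genes and 2 of 2 mitochondrial rRNA genes, against 1.09% of all genes tested. In DMSO 3 misc_RNA genes were higher. The 4 in BPK25 were Rn7sk, Gm24447, Rn7s1 and Rn7s2, and the last 2 are identical over 300 bases. Rn7s2 lost its call in 7 of 12 alternatives, Rn7s1 in 2 of 12 and the mitochondrial rRNA mt-Rnr2 in 1 of 13. Rn7sk, the 7SK RNA that holds the elongation factor P-TEFb inactive, had 8.54, 10.97 and 8.66 CPM at day 2, against 3.13, 2.73 and 1.38 CPM at day 0 (log2 fold change 1.91 ± 0.19, adjusted p = 1.22e-09). Lars2, the mitochondrial leucyl-tRNA synthetase, had 309, 303 and 276 CPM at day 2, against 147, 145 and 172 CPM at day 0 (log2 fold change 0.94 ± 0.06, adjusted p = 4.29e-17). Gm42418 had 6289, 6437 and 5995 CPM at day 2, against 3099.7, 3130.1 and 3244 CPM at day 0 (log2 fold change 0.98 ± 0.04, adjusted p = 1.02e-23). In each of these genes the lowest day 2 library lay above the highest day 0 library, which the naming rule required of Rn7sk and Lars2. Gm23935 had 194, 213 and 194 CPM at day 2, against 68.6, 92.2 and 101 CPM at day 0 (log2 fold change 1.22 ± 0.13, adjusted p = 3e-09), and Gm24270 (0.93 ± 0.14), Gm15564 (1.40 ± 0.19), Gm24447 (2.61 ± 0.39), the mitochondrial 12S ribosomal RNA mt-Rnr1 (0.51 ± 0.07) and the annotated ribosomal RNA CT010467.1 (0.39 ± 0.07) were higher too. A pair of pseudogenes past a 2-fold change, named after their values were seen, rested on 1 library each. Gm28661 had 67.5, 53.3 and 274 CPM at day 2, against 46.3, 59.3 and 52.6 CPM at day 0 (log2 fold change 1.29 ± 0.29, adjusted p = 0.00307). It was not called without day 2 replicate 3 (0.21). Gm28437 had 25.96, 28.4 and 26.9 CPM at day 2, against 99.7, 27.7 and 34.7 CPM at day 0 (log2 fold change -1.07 ± 0.21, adjusted p = 0.000451). It was not called without day 0 replicate 1 (-0.20).

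Some protein-coding genes of low level were called too. Of 30 replication-dependent histone genes tested 2 were higher and 0 lower, with a median of 0.21. Their transcripts also lack a poly(A) tail in cycling cells. Neither histone gene was called without day 2 replicate 2, day 0 replicate 1 or day 0 replicate 3. Hist1h1b, a linker histone, had 0.60, 0.59 and 0.21 CPM at day 2, against 0, 0.11 and 0 CPM at day 0. It was called (adjusted p = 0.0252), though not without day 2 replicate 1 either, and has too few counts at day 0 for a fold change. Hist1h3h, a histone H3 gene, had 0.68, 1.77 and 0.73 CPM at day 2, against 0.24, 0.33 and 0.34 CPM at day 0 (log2 fold change 1.82 ± 0.54, adjusted p = 0.0351). It was also not called without day 0 replicate 2 or with the GC and length trend removed. Bhmt2, a methyltransferase of methionine synthesis named after its values were seen, had 0.26, 0.84 and 0.63 CPM at day 2, against 0.08, 0.11 and 0.11 CPM at day 0 (log2 fold change 2.39 ± 0.73, adjusted p = 0.0433). It was not called without day 2 replicate 2 (1.96), day 2 replicate 3 (2.34), day 0 replicate 1 (2.23), day 0 replicate 2 (2.45) or day 0 replicate 3 (2.48), with no filter on low counts, or with only the libraries compared.

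These genes are not independent readings. Gm42418 (chr17:39846958-39848788, plus strand) and CT010467.1 (chr17:39846353-39848827, minus strand; GENCODE M21 on GRCm38) overlap on opposite strands, and 1244 bases of their transcripts are identical in reverse complement. Without a stated strand setting their reads cannot be told apart. A stretch of 241 bases of Rn7sk occurs in Gm24447, and 72 bases of Lars2 match Gm15564 at 98.6% identity. The 3 short genes annotated as microRNAs at chr16:11144125-11144181 (plus strand), chr9:56223715-56223771 (minus strand) and chr13:9834469-9834525 (minus strand) are given as transcribed, to show that 2 are identical and the other differs by G11A, counted from the 5′ end, with the differing base in capitals.
Gm23935: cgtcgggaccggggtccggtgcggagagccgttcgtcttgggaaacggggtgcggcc
Gm24270: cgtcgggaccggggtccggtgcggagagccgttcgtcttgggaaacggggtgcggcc
Gm24187: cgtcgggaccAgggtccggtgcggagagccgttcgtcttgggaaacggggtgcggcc
The gene types of structural RNA, counted without mitochondrial tRNA genes, leave out Gm42418 and the short genes annotated as microRNAs. Together they took 0.133% of counts at day 2 and 0.112% at day 0, and in DMSO 0.119% at day 2 and 0.112% at day 0. Gm42418 alone took 0.62% at day 2 and 0.307% at day 0, and in DMSO 0.343% at day 2 and 0.289% at day 0. In IAA it took 0.992% at day 2 and 0.401% at day 0. Most structural RNAs lack a poly(A) tail, and the libraries were made from polyadenylated RNA; the part of carry-over in these changes was not tested. An alternative added after seeing the data left out the structural RNA genes, here with mitochondrial tRNA genes, and Lars2, Gm42418, Gm15564 and AY036118. In it 159 genes were higher and 783 lower.

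Many of the genes that were lower at day 2 of BPK25 were lower at day 2 of DMSO as well. Between DMSO day 2 and DMSO day 0, which share no library with the BPK25 comparison, 276 genes were higher (1.59%) and 670 lower (3.85%), 5.44% of those tested in all. Of the genes lower in BPK25, 225 were lower in DMSO too, which is 34.2% of the BPK25 calls and 33.6% of the DMSO calls; of those higher, 37 were shared, 19.5% and 13.4%. In the opposite direction 2 genes higher in BPK25 and 0 lower in BPK25 were called in DMSO. The DMSO fold change had the same sign for 598 of the 658 lower genes (90.9%) and 154 of the 190 higher genes (81.1%). Genes lower in BPK25 had a median log2 fold change of -0.25 in BPK25 and -0.15 in DMSO. Over all genes tested the fold changes correlated at 0.14 across genes, and at 0.46 among genes called in BPK25; genes are not independent replicates, and the days and the fit are shared. The DMSO counts moved when 1 library was left out: 131 higher and 233 lower without DMSO day 2 replicate 3, 159 and 287 without DMSO day 0 replicate 1, 174 and 354 without DMSO day 0 replicate 3, and 423 lower without DMSO day 2 replicate 1.

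In DMSO, Lrp2 changed by -0.55 ± 0.03, L1td1 by -0.52 ± 0.05, Spry4 by -0.54 ± 0.11, Tfcp2l1 by -0.43 ± 0.06, Ttn by -0.84 ± 0.09 and Ddit3 by 0.28 ± 0.07 on the log2 scale, and none of these genes had a called difference from its change in BPK25. By list, the DMSO counts were 8 lower of 21 for naive and 7 lower of 14 for core pluripotency, 6 lower of 10 for DNA methylation, 11 lower of 23 for endoderm, 8 lower of 20 for ribosome biogenesis and 4 higher of 31 for the integrated stress response. On the FGF list only 1 gene was called in DMSO, with a median of -0.14, and none of its genes had a called difference. Klf4 was called in BPK25 and not in DMSO (-0.05 ± 0.05, adjusted p = 0.67), but the difference did not pass the threshold (-0.28 ± 0.07, adjusted p = 0.069). The same holds for Myc, with -0.38 ± 0.20, adjusted p = 0.32 in DMSO and a difference of -0.60 ± 0.27, adjusted p = 0.49, and for Stard4 (-0.41 ± 0.10, adjusted p = 0.0737).

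The test of the difference itself, the BPK25 change minus the DMSO change, called 51 genes (0.293%), 12 higher and 39 lower, and 1552 genes had an unadjusted p under 0.05. Of the 51, 33 were also called within BPK25, which is 3.89% of the 848 BPK25 calls. The count of higher differences was 7 without BPK25 day 0 replicate 1 and 24 without DMSO day 2 replicate 2. Lars2 led this set: beside its rise in BPK25 it had 201, 183 and 192 CPM at DMSO day 2, against 183, 201 and 177 CPM at DMSO day 0, and the difference was 0.91 ± 0.08, adjusted p = 2.14e-10. Gm42418 had a difference of 0.78 ± 0.06, adjusted p = 1.6e-13 and CT010467.1, lower in DMSO and higher in BPK25, of 0.68 ± 0.12, adjusted p = 0.000934. Rn7sk was called higher in DMSO too (0.90 ± 0.24, adjusted p = 0.0184), and its difference was not called (1.01 ± 0.33, adjusted p = 0.26).

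The protein-coding genes that the naming rule picked for their difference from DMSO, other than Lars2, fell in BPK25 and were not called in DMSO. Smap1, a GTPase-activating protein for Arf6, had 73.3, 69.97 and 72.3 CPM at day 2, against 98.1, 104 and 92.9 CPM at day 0 under BPK25, and 87.7, 85.5 and 84.3 CPM at DMSO day 2, against 81.2, 74.3 and 86.6 CPM at DMSO day 0 (difference -0.55 ± 0.08, adjusted p = 0.000156). Sfr1, a cofactor of homologous recombination, had 172, 170.4 and 187 CPM at day 2, against 234, 285 and 242 CPM at day 0 under BPK25, and 183, 197 and 184 CPM at DMSO day 2, against 196, 198 and 194 CPM at DMSO day 0 (difference -0.46 ± 0.08, adjusted p = 0.000525). Tbca, a tubulin-folding cofactor, had 80.1, 73.4 and 79.2 CPM at day 2, against 106, 101 and 107 CPM at day 0 under BPK25, and 90.2, 89.4 and 81.4 CPM at DMSO day 2, against 83.1, 77.98 and 79.2 CPM at DMSO day 0 (difference -0.55 ± 0.09, adjusted p = 0.000853). For all 3 the BPK25 days were separate, and every BPK25 day 0 library lay above every DMSO day 0 library. That was so for 24 of the 39 genes with a lower difference (61.5%), Naa15, Nucks1, Denr, Ddx55, Nmt1 and Dnmt3a among them, against 11.3% of all genes tested. For 4 of the 12 genes with a higher difference (33.3%), Lars2 among them, every BPK25 day 0 library lay below every DMSO day 0 library, against 13% of all genes tested. A difference between the changes uses the day 0 values, so these counts are not independent of the calls. Naa15, the auxiliary subunit of the N-terminal acetyltransferase NatA, had 179.7, 171 and 182 CPM at day 2, against 240.03, 247 and 237 CPM at day 0 under BPK25 (difference -0.34 ± 0.06, adjusted p = 0.000934), and Nucks1, a chromatin-associated phosphoprotein, had 234, 229 and 251 CPM at day 2, against 333, 342 and 327 CPM at day 0 (difference -0.40 ± 0.07, adjusted p = 0.00209). Denr (-0.35), Ddx55 (-0.41), Nmt1 (-0.35), Slc35b1 (-0.54) and Cdk12 (-0.27), named after their values were seen, were also lower in BPK25, not called in DMSO and had called differences. Denr, Ddx55, Nmt1 and Cdk12 act in translation reinitiation, ribosome assembly, protein myristoylation and transcription elongation. Slc35b1 belongs by sequence to a family of nucleotide sugar transporters.

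For a few genes the change was called in DMSO and not in BPK25. Cox17, a copper chaperone for cytochrome c oxidase, was not called in BPK25 (log2 fold change -0.22 ± 0.07, adjusted p = 0.0655) and was higher in DMSO (0.33 ± 0.07, adjusted p = 0.00226), a difference of -0.55 ± 0.10, adjusted p = 0.00253. The pseudogene Eef1a1-ps1 was alike, with -0.19 ± 0.06 in BPK25, 0.32 ± 0.07 in DMSO and a difference of -0.51 ± 0.09, adjusted p = 0.00216. Ywhah, a 14-3-3 protein, and the nucleolar protein Nom1, named after their values were seen, fell in DMSO (-0.33 ± 0.06 and -0.34 ± 0.05) and were not called in BPK25 (0.10 ± 0.06 and 0.03 ± 0.05), with differences of 0.43 and 0.37. Dnmt3a fell more in BPK25 than in DMSO (-0.19 ± 0.04), a difference of -0.23 ± 0.05, adjusted p = 0.0332; its means were 266 ± 7.26 CPM in BPK25 and 263 ± 7.29 CPM in DMSO at day 2, and 358 ± 1.38 CPM in BPK25 and 301 ± 2.30 CPM in DMSO at day 0. It lost its call with no filter on low counts, with only the libraries compared, and on leaving out replicate 1 or 3 of BPK25 day 2, replicate 1 of BPK25 day 0, replicate 2 of DMSO day 2, or replicate 2 or 3 of DMSO day 0, and it lay between -0.26 and -0.22 over all alternatives. Rpl37 rose by 0.26 ± 0.05 in BPK25 and by 0.61 ± 0.05 in DMSO, a difference of -0.35 ± 0.07, adjusted p = 0.0128 (-0.42 to -0.32 over all alternatives). It was lost on leaving out BPK25 day 0 replicate 1, replicate 3 of DMSO day 2, or replicate 1 of DMSO day 0. The difference of Gm23935 (0.81 ± 0.19, adjusted p = 0.0449) was 0.63 to 0.97 over all alternatives and was not called in 10 of them, among them those without any 1 of the BPK25 day 2 libraries, replicate 1 of BPK25 day 0, replicate 2 or 3 of DMSO day 2, and replicate 2 or 3 of DMSO day 0.

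**Figure D4:**
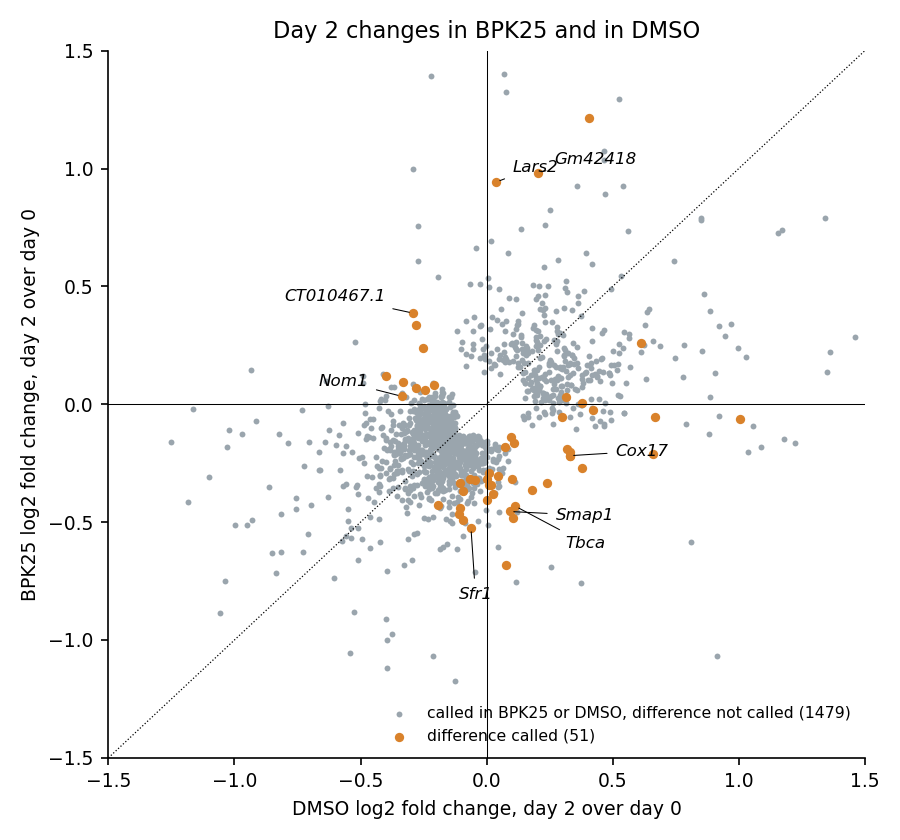
Log2 fold change, day 2 over day 0, in BPK25 (vertical) against DMSO (horizontal) for genes called in either; orange points are the 51 genes with a called difference and the dotted line marks equal change. Lars2, Gm42418 and CT010467.1 lie above the line, and Smap1, Sfr1, Tbca and Cox17 below it; 23 genes lie outside the axes.

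Set beside IAA, the BPK25 change was small. Between IAA day 2 and IAA day 0, 5242 genes were higher (30.1%) and 5103 lower (29.3%), 59.5% of those tested in all, and the change differed between BPK25 and IAA for 8079 genes (46.4%). Of the genes lower in BPK25, 441 were lower in IAA (67.0% of the BPK25 calls and 8.64% of the IAA calls) and 101 were higher in IAA. Tdgf1 changed by -0.21 ± 0.05 in BPK25 and -5.25 ± 0.07 in IAA, a difference of 5.04 ± 0.10, adjusted p = 1.42e-39. Spry4 changed by -0.53 ± 0.10 and -2.40 ± 0.11 (difference 1.88 ± 0.15, adjusted p = 9.5e-15), and Myc by -0.97 ± 0.18 and -2.71 ± 0.22 (difference 1.74 ± 0.30, adjusted p = 3.38e-06). Lars2 rose by 0.94 ± 0.06 in BPK25 and by more in IAA (1.45 ± 0.06), and Rn7sk rose in IAA too (1.49 ± 0.22).

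The levels at later days place the day 2 values in the series, as means without a test. Klf4 averaged 169.8 ± 5.79, 135 ± 5.04, 57.6 ± 6.67 and 73.6 ± 1.40 CPM at days 0, 2, 4 and 6 of BPK25, and 149.6 ± 5.67, 144 ± 2.996, 71.4 ± 2.61 and 66.7 ± 0.30 CPM at the same days of DMSO. Its day 4 and day 6 means lay below the day 2 mean under either treatment. Lars2 averaged 155 ± 15.4, 296 ± 17.4, 139.8 ± 0.67 and 119.7 ± 5.72 CPM under BPK25, and 187 ± 12.5, 192 ± 8.94, 226 ± 10.05 and 123 ± 12.8 CPM under DMSO. The highest Lars2 mean was at day 2 under BPK25 and at day 4 under DMSO. Under IAA its mean was 223 ± 4.68 CPM at day 0 and 609 ± 27.8 CPM at day 2.

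**Figure D5:**
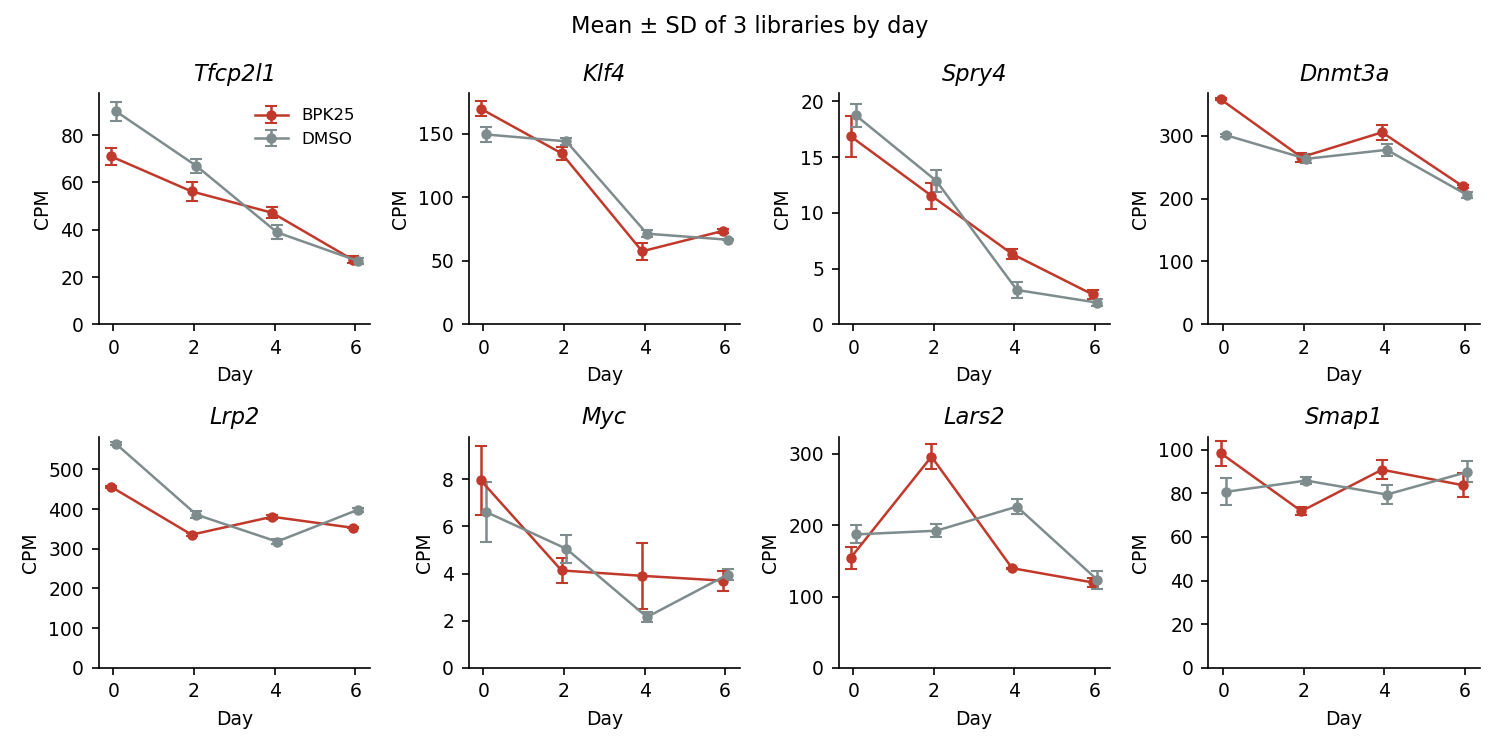
Mean level in CPM (± SD, n = 3) of 8 genes at days 0, 2, 4 and 6 under BPK25 and DMSO. The Lars2 mean is highest at day 2 under BPK25, and the means of Klf4 and Spry4 are lower at days 4 and 6 than at day 2 under both treatments.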

How the data were processed

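The deposited data are raw read counts by gene for 36 libraries in a single table, per the file headers; columns carried library titles. Per the labels' protocols, libraries were made from polyadenylated RNA with a SMARTer kit. Per the submitters' processing notes, HISAT2 2.1.0, FastQC 0.11.7, DESeq2 and featureCounts 2.0.1 were used with genome mm10; strand setting and annotation are not given. From those counts, genes were filtered with filterByExpr (12 groups, at least 10 counts, at least 15 in total) and scaled by TMM, and all 36 libraries entered 1 fit of 12 groups with edgeR 4.0.16 (glmQLFit, glmQLFTest; R 4.3.3), two-sided, with Benjamini-Hochberg adjustment over 17394 genes, called at an adjusted p under 0.05. The test was checked on simulated data, where the share of false calls over all draws lay somewhat above the threshold set on the adjusted p, most of all in the first draw. The differences between changes were contrasts of the same fit. Replicate pairs differed by more than sampling noise (chi-square per degree of freedom 1.381 to 3.066 in 36 pairs), and each library was counted as 1 sample. The gene lists, the naming rule and the comparison were chosen with earlier results of these data known, and lists were described by counts and medians, with no set test. The rule named the 12 highest and 12 lowest called genes of at least 5 CPM with no overlap of libraries, the 8 smallest p-values of the difference to DMSO, up to 5 members of each list described, Ctcf and the genes of NuRD; some of these are not described. Alternatives were RLE size factors, DESeq2 1.42.0, other filters, only the libraries compared, a replicate block, each library left out, and 2 added after seeing the data: structural RNA genes left out, and a trend in GC content and transcript length (GENCODE M21) removed. Some genes that met the rule are not reported here.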

Additional observations from a re-analysis of the deposited data

Results flagged for a closer look

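The day 2 change differed between BPK25 and DMSO for 51 genes and between BPK25 and IAA for 8079 genes, by edgeR's quasi-likelihood test of the difference between the changes with Benjamini-Hochberg adjustment. Among the genes named above, the change in BPK25 was above that in DMSO, on the log2 scale, for Lars2 (0.91), Gm42418 (0.78), Gm23935 (0.81), CT010467.1 (0.68), Ywhah (0.43) and Nom1 (0.37). It was below that in DMSO for Smap1 (-0.55), Sfr1 (-0.46), Tbca (-0.55), Cox17 (-0.55), Slc35b1 (-0.54), Eef1a1-ps1 (-0.51), Ddx55 (-0.41), Nucks1 (-0.40), Rpl37 (-0.35), Nmt1 (-0.35), Denr (-0.35), Naa15 (-0.34), Cdk12 (-0.27) and Dnmt3a (-0.23). Against IAA the difference was 5.04 ± 0.10, adjusted p = 1.42e-39 for Tdgf1, 1.88 ± 0.15, adjusted p = 9.5e-15 for Spry4 and 1.74 ± 0.30, adjusted p = 3.38e-06 for Myc. With 3 libraries a group, single libraries were not tested as outliers.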

How the results depend on the processing

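For BPK25 day 2 against day 0, DESeq2's Wald test called 116 genes higher, against 190 by edgeR, and 703 lower. RLE size factors gave 172 higher and 749 lower, and no filter on low counts 168 and 576. With a replicate block the counts were 188 and 652. Same-numbered libraries did not deviate together over all genes tested (correlations of -0.0081, -0.0138 and -0.0016). Whether the numbers mark a shared culture or preparation was not tested. Leaving out 1 library gave 88 to 161 higher and 427 to 643 lower in BPK25, 131 to 313 higher and 233 to 576 lower in DMSO, and 7 to 24 higher and 27 to 52 lower for the difference between BPK25 and DMSO. With only the libraries compared, 379 genes were lower in DMSO, and with no filter the difference called 56 genes higher and 94 lower. The cause of these moves was not tested. With the GC and length trend removed, the median of the CTCF and cohesin list was -0.06, against -0.12. Of 187 named results called, 110 kept their call in every alternative that gave an adjusted p and 77 lost it in at least 1, with 0 reversed. An alternative that gave a gene no adjusted p was not counted as a loss, so the 110 can be too many. With 3 libraries a group, counting error limits genes under about 5 CPM.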
